A study of Oryctolagus cuniculus with 4 samples.

Results

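Mitochondrial ribosomal proteins are encoded in the nucleus, made in the cytosol and imported into mitochondria, where they assemble with ribosomal RNAs of the mitochondrial genome into a large and a small subunit. This ribosome makes only the few inner membrane proteins that mitochondria encode themselves, which are parts of the respiratory chain and of ATP synthase. The small subunit binds and decodes the messenger RNA, and the large subunit joins the amino acids and releases the growing chain through its exit tunnel into the inner membrane. Genes were taken as members when their symbol in the deposited table began with MRPL or MRPS and a number. The rule found 40 of 13913 genes, 25 MRPL genes counted as large subunit and 15 MRPS genes counted as small subunit. This assignment is by symbol, although MRPS18A and MRPS30 sit in the large subunit and MRPS36 in neither. A RefSeq list of rabbit genes held 74 symbols of this form, 37 of which were among the 40 members. The other 37, such as MRPL12, MRPL58 and MRPS18C, were not in the deposited table under these symbols and were not analysed here. The table held 3706 genes without a symbol, which the rule and the gene lists used below could not match.

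To examine how drug-loaded microneedles (MNs) affected hypertrophic scar (HS), 10x Genomics single-cell libraries were made from scars on the ventral side of the ears of young female wild-type rabbits, 2 for HS and 2 for drug-loaded MNs. All the scars had grown after skin and perichondrium were cut away, and the HS group received no treatment. The drug-loaded MNs group received patches whose separating tips carried a prodrug of 5-fluorouracil acetic acid, once a week for 3 consecutive weeks. Each library came from the dissociated epidermis and dermis of 1 scar tissue, and no library of drug-free MNs was analysed here, so the drug and the needles cannot be told apart. The study describes the samples as biologically independent, but nothing in the labels says whether they came from separate animals, so the p-values measure only the spread between these libraries. No single cells could be looked at, since each gene had 1 value per library, so a lower share of a cell type and less RNA per cell cannot be told apart.

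Values are given as relative expression in units of 1 part in 1000000 of a library, and differences as log2 fold changes of drug-loaded MNs against HS on the log2(value + 1) scale. Depth was unknown. All 40 members had a value above 0 in every library and passed the filter of a mean of at least 1 unit. Whether the values were corrected for length was not stated, so values of different genes may not be comparable as levels. The rankings by value and the sums over genes given below carry this limit. HS replicate 1 was the lowest of the 4 libraries in 44.5% of the 9348 genes tested. Drug-loaded MNs replicate 1 was the highest in 40.1% of them. The 6 fibroblast markers of a list of 7 that were in the table summed to 22526 to 22996 units in HS and to 44682 to 48616 in drug-loaded MNs. The 6 macrophage markers of a list of 8 summed to 77.7 to 95.3 units in HS and to 194 to 195 in drug-loaded MNs. The 3 suprabasal keratinocyte markers of a list of 7 summed to 35935 to 50732 units in HS and to 30455 to 39833 in drug-loaded MNs, most of it KRT10, with 1 of the 3 above 0 and 2 below in log2 fold change. None of these markers was at 0 in a library, and their part in the results below was not tested.

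No change between the groups was detected in either subunit. No member passed an adjusted p of 0.05 in limma, where 0.0428% of all genes tested did. At an unadjusted p under 0.05, 0 of 40 members were higher and 1 was lower in drug-loaded MNs, beside 7.26% of all genes higher and 1.39% lower. Of the 40 members, 20 had a log2 fold change above 0 and 20 below, from -0.54 in MRPS24 to 0.28 in MRPL24. Over all genes tested 64.6% were above 0, and 31 of 40 members lay below the median of all genes. The split of the members was 9 above and 31 below under median ratio scaling, and 11 above and 29 below under quantile normalization. In 39 of 40 members, which is 97.5%, the 95% interval of the change lay within 1 log2 unit on either side of 0, so that a doubling or halving was outside it. Over all genes tested the share was 60.4%. This share depends on the size of the change as well as on the width of the interval. The median SE was 0.24 in the members and 0.28 over all genes. The median size of the change, regardless of sign, was 0.15 in the members and 0.23 over all genes. The members also differed between the libraries of one group. The median size of that difference was 0.30 for the pair of HS libraries and 0.18 for the drug-loaded MNs pair. Over all genes it was 0.33 and 0.23. These differences are between single libraries, while the change is between means of 2 libraries, so their sizes are not directly comparable.

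**Figure D1:**
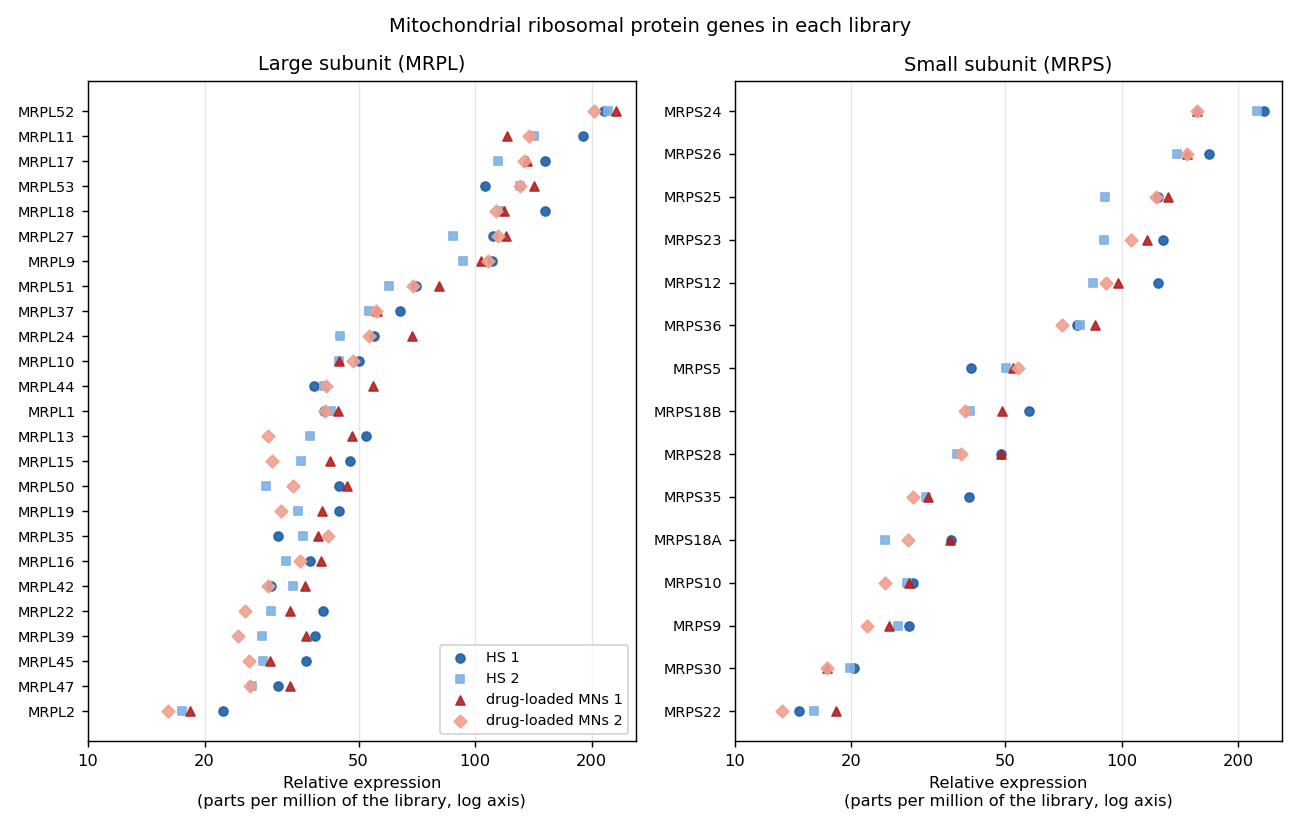
Relative expression of the 25 large subunit and 15 small subunit genes (log axis, units of 1 part in 1000000) in each of the 4 libraries, with HS in blue and drug-loaded MNs in red. For most genes the points of both groups are interleaved, and MRPS24 is the member whose HS points (224 and 233) lie farthest from the drug-loaded MNs points (156 and 157).

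The groups of libraries did not overlap in 4 members that were higher in drug-loaded MNs and in 4 that were lower, where 26.6% of all genes did so upward and 11.2% downward. The other 32 members overlapped. By symbol, 3 members of the large subunit were free of overlap upward and 1 downward. In the small subunit it was 1 upward and 3 downward. The downward ones of the small subunit include MRPS30, which sits in the large subunit.

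In the large subunit, 13 of 25 members were above 0 and 12 below. The median log2 fold change was 0.031, beside 0.12 for all genes, and other scalings gave -0.11 (median ratio) and -0.076 (quantile). The interquartile range of the 25 changes was -0.19 to 0.15, against -0.090 to 0.36 over all genes. Among the large subunit members whose groups did not overlap, the lowest p was that of MRPL11, a protein at the base of the stalk that recruits translation factors. Its values were 190.1 and 142 units in HS, beside 121 and 138 in drug-loaded MNs. The gap between HS replicate 2 and drug-loaded MNs replicate 2 was much smaller than that between the HS libraries. The change was -0.34 (SE 0.24), did not pass limma at an adjusted p of 0.773, and ranged from -0.55 to -0.13 with 1 library left out.

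The 3 large subunit members free of overlap upward were MRPL35, MRPL27 and MRPL44. MRPL35, a counterpart of a bacterial large subunit protein, stood at 31.0 and 36.0 units in HS and at 39.3 and 41.7 in drug-loaded MNs, a difference that did not pass the test (log2 fold change 0.27, SE 0.23, limma adjusted p 0.834). MRPL27, whose bacterial counterpart reaches towards the site where peptide bonds form, stood at 111 and 87.9 units in HS and at 121 and 114 in drug-loaded MNs. Its change was 0.25 (SE 0.23, limma adjusted p 0.839). In the rabbit RefSeq list the locus of MRPL27 overlaps that of EME1, and reads of such a pair may not be separated. MRPL44, a relative of ribonuclease III near the exit tunnel, stood at 38.4 and 40.7 units in HS and at 54.6 and 41.3 in drug-loaded MNs, a change of 0.26 (SE 0.24, limma adjusted p 0.845). Only drug-loaded MNs replicate 1 was clearly above HS in this gene, and the change was 0.060 without that library.

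MRPL52 and MRPL17, among the 3 large subunit members with the greatest values, had changes close to 0. MRPL52, a protein that bacteria lack, had 216 and 220.0 units in HS against 231 and 203 in drug-loaded MNs. The drug-loaded MNs libraries lay on both sides of the HS pair. Its change was -0.0098, with a 95% interval from -0.50 to 0.48. MRPL17, which lies near the tunnel exit, had 152 and 115 units in HS, beside 137 and 134 in drug-loaded MNs, so that both treated libraries fell between the untreated ones, and its change was 0.031. MRPL16 and MRPL50 came nearest to the median of all genes. MRPL16, whose bacterial counterpart lies near the transfer RNA sites, had 37.5 and 32.5 units in HS against 39.9 and 35.3 in drug-loaded MNs, with a change of 0.0998. MRPL50, which is specific to mitochondria, had 44.5 and 28.9 units in HS, beside 46.8 and 33.9 in drug-loaded MNs, with a change of 0.15. In both genes the replicates differed more than the groups did.

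The parts of the large subunit were looked at by lists of their proteins. Of the exit tunnel list 7 of 8 genes were in the table, 4 of them above 0 and 3 below, with a median change of 0.031. They summed to 392 and 313 units in HS and to 393 and 330.0 in drug-loaded MNs, so replicate 1 of each group was alike and replicate 2 of each group was alike. One of them, MRPL45, which anchors the ribosome to the inner membrane, had 36.6 and 28.3 units in HS against 29.5 and 26.1 in drug-loaded MNs, a change of -0.21 (SE 0.25, limma adjusted p 0.882). The locus of MRPL45 overlaps GPR179 in the RefSeq list. Of the stalk list 3 of 5 genes were in the table, with 1 above 0 and 2 below. They were MRPL10, MRPL11 and MRPL53, and they summed to 346 and 317 units in HS and to 307 and 317 in drug-loaded MNs. The central protuberance was represented by 2 of 7 genes, MRPL18 and MRPL27, with 1 above and 1 below 0. The 16 members with a bacterial counterpart had a median of 0.0037, 8 above 0 and 8 below, and the 9 without one had a median of 0.035, 5 above and 4 below.

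**Figure D2:**
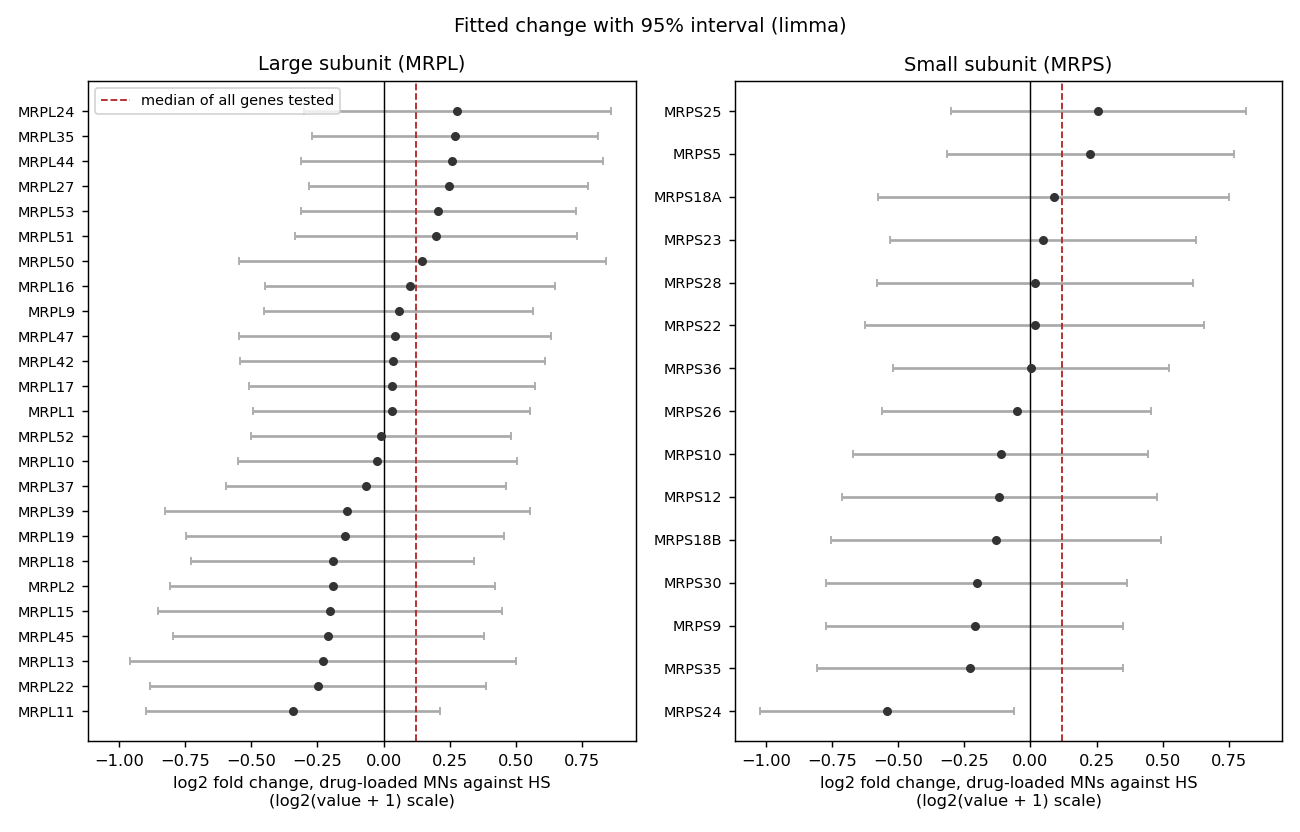
Log2 fold change of drug-loaded MNs against HS for each member (points) with its 95% interval from limma (bars). The solid line is 0 and the dashed line is the median of all genes tested, 0.12. MRPS24, at -0.54, is the only member whose interval does not cross 0.

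In the small subunit, 7 of 15 members were above 0 and 8 below. The median log2 fold change was -0.052, and it was -0.195 under median ratio scaling and 0.080 without HS replicate 1. MRPS24 had the log2 fold change farthest from 0 of all 40 members. It is the mitochondrial counterpart of the bacterial protein that lines the entry of the messenger RNA channel. Its values were 233 and 224 units in HS, beside 156 and 157 in drug-loaded MNs, so that both libraries of a group were close to each other and the groups were far apart. The HS mean was 228 ± 6.29 units and the drug-loaded MNs mean 156 ± 0.138 (SD, n = 2 libraries each), and the log2 fold change was -0.54 (SE 0.21, 95% interval -1.02 to -0.064). The unadjusted p was 0.0314, and the limma adjusted p over all 9348 genes was 0.501, so that MRPS24 did not pass the test. By unadjusted p it was at place 585 of 9348. The fold change was -0.57 to -0.52 with 1 library left out, and it kept its sign in 14 of 14 alternatives. Only the changes of scaling could have reversed it, and these gave -0.69 to -0.55. Leaving out 1 library could not, since the groups did not overlap, nor could the changes of pseudocount, filter, variance prior and replicate block. With all 4 libraries, the limma adjusted p was 0.322 or above. No other gene overlaps MRPS24 in the RefSeq list.

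Scaling was kept out by taking MRPS24 relative to the other 14 MRPS members of the same library, with MRPS18A, MRPS30 and MRPS36 included. This measure was chosen after the values had been seen and has no test. The HS libraries had a log2 ratio of -2.01 and -1.75, and the treated ones of -2.50 and -2.36, and the difference was -0.55. MRPS24 was lower against the other MRPS members as well as against the whole library.

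MRPS9 and MRPS30, counted as small subunit by symbol, were also free of overlap downward. MRPS9, whose bacterial counterpart reaches the transfer RNA at the peptidyl site, stood at 28.1 and 26.4 units in HS and at 25.0 and 21.9 in drug-loaded MNs, and its change was -0.21 (SE 0.24, limma adjusted p 0.877). In the RefSeq list another locus overlaps MRPS9. MRPS30 stood at 20.3 and 19.9 units in HS and at 17.3 and 17.3 in drug-loaded MNs, with a change of -0.20 (SE 0.24, limma adjusted p 0.881). Its replicates nearly coincided, at 20.1 ± 0.302 and 17.3 ± 0.0541 units (SD, n = 2 each). Despite its symbol, MRPS30 sits in the large subunit of the mammalian ribosome. In the other direction, MRPS5, which lies by the entry of the messenger RNA, stood at 40.8 and 50.2 units in HS and at 52.5 and 53.9 in drug-loaded MNs, a change of 0.23 (SE 0.23, limma adjusted p 0.861). Its HS libraries differed by more than HS replicate 2 did from either treated library.

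In 11 of 15 small subunit members replicate 1 was above replicate 2 in both groups. MRPS12, part of the decoding center, had 124 and 84.3 units in HS against 97.9 and 90.8 in drug-loaded MNs, a change of -0.12 that was 0.16 without HS replicate 1. MRPS23, which is specific to mitochondria and overlaps CUEDC1 in the RefSeq list, had 128 and 89.8 units in HS, beside 116 and 105 in drug-loaded MNs, with a change of 0.049. In both genes HS replicate 1 was the highest library and HS replicate 2 the lowest. MRPS26 and MRPS25, which bacteria also lack, had the greatest values of the subunit after MRPS24. MRPS26 had 168 and 139 units in HS against 147 and 147 in drug-loaded MNs, a change of -0.052. MRPS25, which overlaps NR2C2, had 124 and 90.7 units in HS, beside 131 and 122 in drug-loaded MNs, a change of 0.26 that fell to 0.035 without HS replicate 2. The change of the 5 small subunit members with a bacterial counterpart (MRPS5, MRPS9, MRPS10, MRPS12 and MRPS24) was above 0 in 1 case and below in 4, and that of the 5 without one (MRPS22, MRPS23, MRPS25, MRPS26 and MRPS35) was above 0 in 3 and below in 2. MRPS28 (0.018) and MRPS18B (-0.13) were in neither list.

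The MRPS18 paralogs are copies of 1 ancestral gene whose products take different places in the ribosome, and only MRPS18A and MRPS18B were in the table. MRPS18A, which sits in the large subunit despite its symbol, had 36.2 and 24.4 units in HS against 35.9 and 28.0 in drug-loaded MNs. Its locus overlaps 2 others in the RefSeq list. Its change of 0.087 turned to -0.053 with median ratio scaling and to -0.035 with quantile normalization. MRPS18B, in the small subunit, had 57.4 and 40.5 units in HS, beside 49.2 and 39.4 in drug-loaded MNs, with a change of -0.13. For both paralogs replicate 1 was above replicate 2 in each group. MRPS36, now known as a subunit of the alpha-ketoglutarate dehydrogenase complex rather than of the ribosome, had 76.6 and 77.7 units in HS against 85.3 and 70.1 in drug-loaded MNs. The treated libraries lay on both sides of the HS pair, and its change of 0.0028 was the nearest to 0 of all members.

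When the members were summed, the large subunit took 1812 and 1560.3 units in HS, beside 1766 and 1598 in drug-loaded MNs. The group means were 1686 ± 178 and 1682 ± 119 units (SD, n = 2 each), a log2 ratio of -0.0034 with a p of 1 in an exact permutation test. The small subunit took 1168 and 979.5 units in HS against 1041 and 958 in drug-loaded MNs, with means of 1074 ± 134 and 999 ± 58.8 units (SD, n = 2 each). The log2 ratio of its means was -0.10 (p 0.667, exact permutation test), and it was 0.029 without HS replicate 1. The test was taken on both sides, and with 2 libraries against 2 it cannot go below 0.333. Both sums were larger in replicate 1 than in replicate 2 of each group.

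The ratio of the large to the small subunit does not depend on how a library is scaled. Its log2 was 0.63 and 0.67 in the HS libraries against 0.76 and 0.74 in the treated ones, so the groups did not overlap. The difference was 0.098 (p 0.333, exact permutation test, the smallest it can give), and it was 0.079 to 0.12 with 1 library left out. When MRPS18A and MRPS30 were counted with the large subunit and MRPS36 with neither, the difference was 0.11. The difference rested on MRPS24. Without MRPS24, a step chosen after the values had been seen and given no test, the log2 ratio was 0.95 and 1.05 in the HS libraries against 0.997 and 0.996 in the treated ones, which differ by -0.0031.

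**Figure D3:**
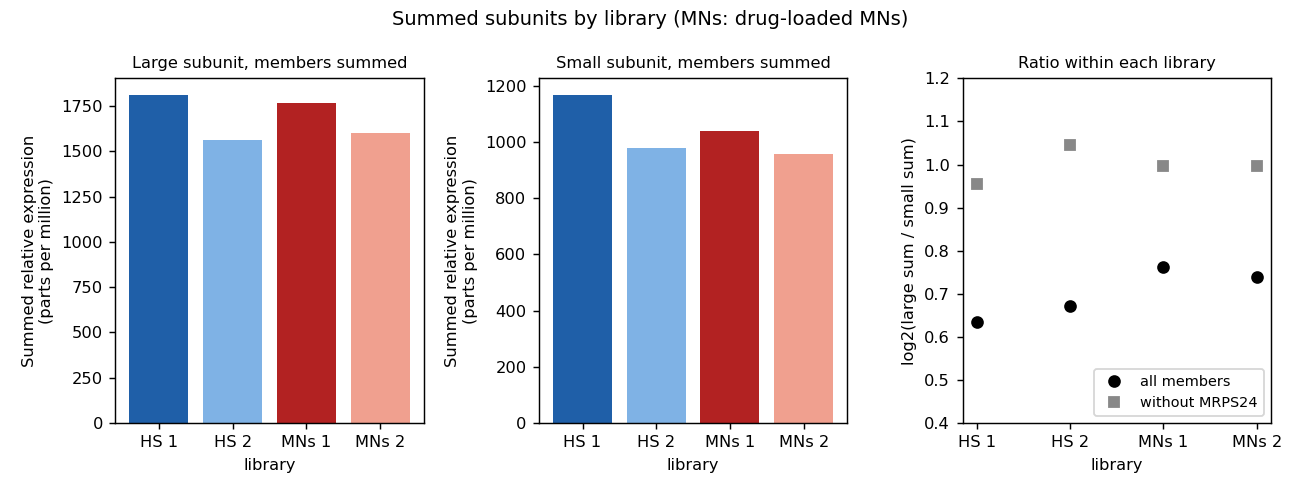
Summed relative expression (units of 1 part in 1000000) of the large and the small subunit in each library (bars), and log2 of the ratio of the sums within each library with all members (circles) and without MRPS24 (squares). Both sums are highest in HS replicate 1 (1812 and 1168), and the ratio differs between the groups only while MRPS24 is counted.

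Members varied between the 2 libraries of a group in a shared way. In 27 of 40 members, or 67.5%, replicate 1 was above replicate 2 in both groups, against 27.8% of all genes tested. This held for 16 of 25 members of the large and 11 of 15 of the small subunit. HS replicate 1 was the highest library in 23 members and HS replicate 2 in 0, while over all genes they were the highest in 18.8% and 24.2%. Between the HS libraries the median difference of the members was 0.28, while that of all genes was -0.12. Between the drug-loaded MNs libraries it was 0.17 in the members and 0.11 in all genes. On the log2(value + 1) scale, MRPL13 differed most between the drug-loaded MNs libraries, at 48.2 and 29.2 units, and MRPL50 most between the HS libraries. The exceptions with replicate 2 above replicate 1 in both groups were 2 members, MRPL35 and MRPS5. The labels do not say that libraries of the same number belong together. Cycling markers (8 of a list of 11 in the table) summed to 407 and 229 units in HS and to 596 and 240.2 in drug-loaded MNs, and basal keratinocyte markers (5 of 6) to 8265 and 5718 and to 7678 and 4040 units. All 8 cycling markers were higher in replicate 1 of each group. So were 3 of 5 basal markers, while TP63 (153 and 274 units) and COL17A1 (176 and 392 units) were lower in HS replicate 1 than in HS replicate 2. The part of these markers was not tested.

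**Figure D4:**
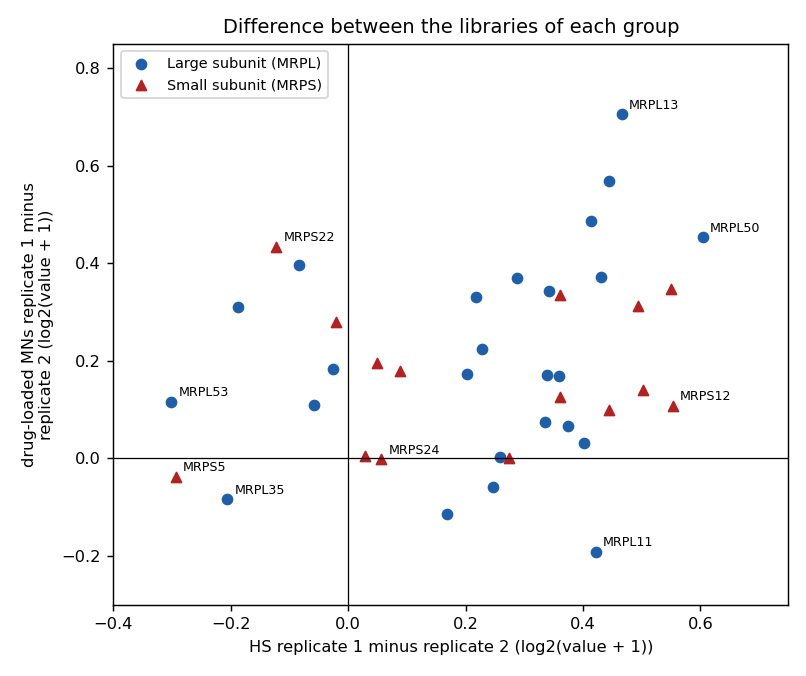
Difference between replicate 1 and replicate 2 on the log2(value + 1) scale in HS (horizontal axis) and in drug-loaded MNs (vertical axis) for each large subunit (circles) and small subunit (triangles) gene. Most points, 27 of 40, lie at the upper right, and MRPL35 and MRPS5 lie at the lower left.

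The members were then set beside genes whose products they work with. Nuclear-encoded subunits of the respiratory chain and ATP synthase, which join the products of the mitochondrial ribosome in the inner membrane, summed to 9526 and 8002 units in HS and to 9310 and 8123 in drug-loaded MNs over 27 genes. Of these 27 genes 13 were above 0 and 14 below, with a median log2 fold change of -0.014. Log2 of the ratio of all members to these subunits was -1.68 and -1.66 in the HS libraries against -1.73 and -1.67 in the treated ones, which differ by -0.033 (p 0.667, exact permutation test). Their replicates also moved with those of the members, with replicate 1 above replicate 2 in both groups in 19 of 27 genes. The messengers that the mitochondrial ribosome translates, encoded by 13 genes of mitochondrial DNA of which 4 were listed at 0 in every library, summed to 27457 and 27998 units in HS and to 43676 and 45805 in drug-loaded MNs. All 9 of these genes that were tested had a log2 fold change above 0, with a median of 1.24, 7 had an unadjusted p under 0.05 and 1, ND4L, named here after its values were seen, passed the threshold (log2 fold change 2.77, limma adjusted p 0.0455). Their sum was 2.75% and 2.80% of the total in HS, then 4.37% and 4.58% in drug-loaded MNs. The study filtered cells on the mitochondrial share, a sign of cell quality, whose part in the ratio that follows was not tested. Against these genes, log2 of the ratio of all members was -3.20 and -3.46 in the HS libraries against -3.96 and -4.16 in the treated ones. The groups did not overlap, and the difference of -0.73 (p 0.333, exact permutation test) came with sums of the members that overlapped between the groups. Cytoplasmic ribosomal proteins summed to 82442 and 92551 units in HS and to 79636 and 83094 in drug-loaded MNs over 22 genes. HS replicate 2 was the highest library for this sum. Of the 40 members, 15 had their lowest value in HS replicate 2 and 18 in drug-loaded MNs replicate 2.

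Other genes of mitochondrial translation were taken from lists. None of these genes passed the limma test, and none had an unadjusted p under 0.05. Of 30 assembly factors 16 were in the table, 6 above 0 and 10 below, with a median of -0.050. TFB1M, which methylates the ribosomal RNA of the small subunit, had the smallest p of the list, with 34.9 and 30.5 units in HS, beside 27.7 and 23.3 in drug-loaded MNs. Its change was -0.35 (SE 0.24, limma adjusted p 0.773), and the groups did not overlap. MRM3, which methylates the ribosomal RNA of the large subunit, had 22.5 and 21.3 units in HS against 16.5 and 19.4 in drug-loaded MNs, a change of -0.28 (SE 0.25, limma adjusted p 0.836).

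Of 21 symbols of translation factors 10 were in the table, 7 above 0 and 3 below, with a median of 0.195. GUF1, a back-translocating elongation factor, had 14.3 and 21.7 units in HS, beside 24.6 and 21.6 in drug-loaded MNs, a change of 0.37 (SE 0.29, limma adjusted p 0.805). HS replicate 1 alone was low in this gene. TUFM, the elongation factor that brings transfer RNA to the ribosome, had 179 and 142 units in HS against 149 and 127 in drug-loaded MNs, a change of -0.21 (SE 0.23, limma adjusted p 0.869). Another list had 24 symbols of enzymes that charge mitochondrial transfer RNA with amino acids or modify an amino acid already attached. Of these 17 were in the table, 12 above 0 and 5 below, with a median of 0.091. RARS2, which charges transfer RNA with arginine, had 11.4 and 10.8 units in HS, beside 12.6 and 14.3 in drug-loaded MNs, a change of 0.25 (limma adjusted p 0.861). GARS, which charges transfer RNA with glycine in the cytosol and in mitochondria, had 69.2 and 55.9 units in HS against 73.0 and 72.0 in drug-loaded MNs, a change of 0.22 (limma adjusted p 0.862). Of 6 ribosomal proteins with names of another form, DAP3, a GTP-binding protein of the small subunit, was in the table, with 42.2 and 44.7 units in HS, beside 44.7 and 42.8 in drug-loaded MNs, and its change was 0.011.

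**Figure D5:**
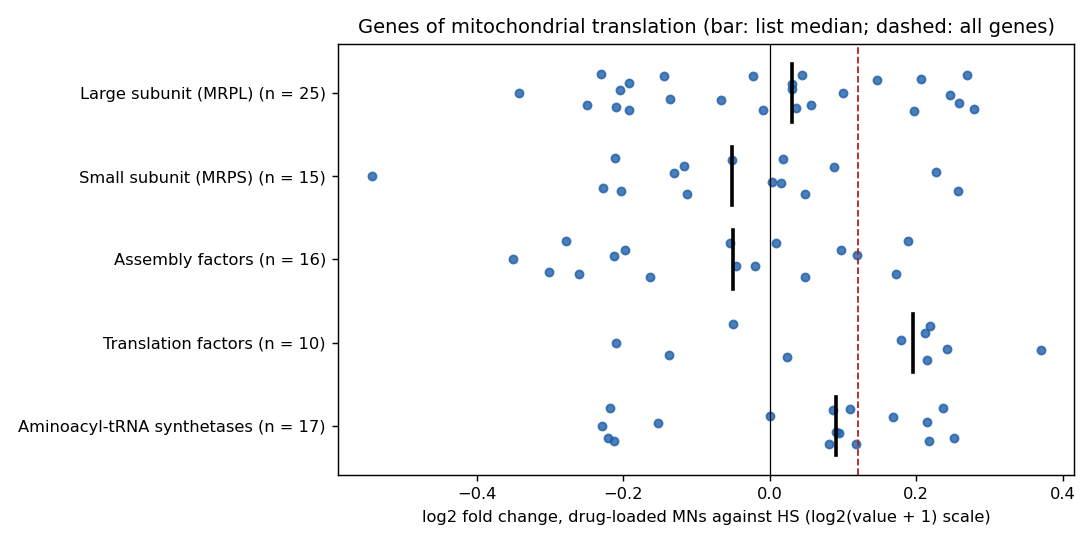
Log2 fold change of drug-loaded MNs against HS for each gene (points) of both subunits and of 3 lists of mitochondrial translation, with the median of each list as a bar, a solid line at 0 and a dashed line at the median of all genes, 0.12. The points of all 5 groups of genes lie between -0.54 and 0.37.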

How the data were processed

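The authors processed the reads with Cell Ranger, given as version 2.1.1 in the submitters' processing notes. Those notes name the build mm10, while the table carries rabbit Ensembl identifiers. Per the study's methods, cells were filtered on the mitochondrial share and handled in Seurat, with a correction between samples. How cells were combined, how doublets were treated and whether that correction reached the table were not stated in the sources used here. The signal values the authors deposited summed to 10000 in each column over 13913 genes, and although the table is named for FPKM they are called relative expression.

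Values were rescaled to 1000000 per library and genes with a mean of at least 1 were retained (9348 genes). Limma 3.58.1 was then fitted to log2(value + 1) (lmFit, eBayes with trend) under R 4.3.3, and p-values of both sides were adjusted over all 9348 genes after Benjamini and Hochberg, at a threshold of 0.05. Whole reads could not be recovered, since at most 21.7% of low values came within 0.1 of whole steps, and no count test was run. Alternatives changed the scaling, pseudocount, filter, variance prior, replicate block and the libraries used. Named genes were members past the threshold, up to 6 rises and 4 falls per subunit without overlap between groups, the 3 greatest values and the 2 changes nearest to the median of all genes per subunit, a short fixed list, and 2 genes per pathway list. MRPL13, MRPL24 and the genes that fill a list were named beside it. Members, lists and tests were chosen with earlier results of these data known. RefSeq overlaps come from the assembly mOryCun1.1, which may not be the build of the table, so no coordinates are printed. In it 14 of the 37 matched members overlap another gene, and whether counting used the strand was not stated.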

Additional observations from a re-analysis of the deposited data

How the results depend on the processing

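Among the 14 alternative fits, no member passed the limma threshold in any that used all 4 libraries. Assigning subunits by structure takes the reported fit again, so it could not change the count. A fit without 1 library has 1 library in that group, whose spread is taken from the other group, so these fits say little on whether a member passes. MRPS24 had an unadjusted p under 0.05 as reported, but 0 members did with eBayes without trend and without drug-loaded MNs replicate 1 or 2. With the replicate number as a block, 241 genes passed and still 0 members, the smallest limma adjusted p being 0.322. Same-numbered libraries share only a number. The deviations of their values from the group means correlated at 0.22 across genes, and 2 pairs cannot establish a pairing.

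Over all genes the count that passed was 4, and it was 0 with no filter, a pseudocount of 5, quantile normalization and median ratio scaling, and 1 with eBayes without trend and with the total without abundant genes. With 1 library left out it was 0 to 75 (0 or 3 without an HS library, 48 or 75 without replicate 1 or 2 of drug-loaded MNs). Under median ratio scaling all genes had a median of -0.011 instead of 0.12 and the members of -0.15 instead of -0.0035, so the members lay below all genes by 0.12 and 0.14. Their median minus that of all genes was -0.066 under quantile normalization, -0.35 without HS replicate 2 and 0.019 without HS replicate 1.

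The large subunit median (0.031) was -0.11 under median ratio scaling and ranged from -0.11 to 0.086 with 1 library left out, and the small subunit median from -0.19 to 0.080. The log2 ratio of group means of the large subunit sum ranged from -0.11 to 0.11 and that of the small subunit sum from -0.23 to 0.029 with 1 library left out, while median ratio scaling gave -0.16 and -0.26. The ratio of the subunits kept its direction, which leaving out 1 library could not reverse, since the groups did not overlap in it. The causes were not tested.

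Of the 40 members, 18 kept their direction in all 14 alternatives and 22 changed it when 1 library was left out. Changes of filter, variance prior and replicate block cannot alter a fold change. Leaving out 1 library cannot reverse a member whose groups do not overlap. Under median ratio scaling and quantile normalization the changes of MRPL16 were -0.041 and -0.015, of MRPL17 -0.11 and -0.010, of MRPS18A -0.053 and -0.035 and of MRPS36 -0.14 and -0.065, and MRPS23 was -0.095 under the first. MRPS36 was -0.0060 with the total without abundant genes. With 1 library left out, changes ranged from -0.0013 to 0.20 in MRPL16, -0.17 to 0.23 in MRPL17, -0.16 to 0.45 in MRPL50, -0.10 to 0.082 in MRPL52, -0.39 to 0.16 in MRPS12, -0.19 to 0.36 in MRPS18A, -0.38 to 0.12 in MRPS18B, -0.20 to 0.30 in MRPS23, -0.19 to 0.085 in MRPS26 and -0.14 to 0.14 in MRPS36. Count tests were not run. With no depth given, no limit set by depth could be worked out.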
